A study of Mus musculus with 2 samples.

Results

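Natural killer (NK) barcodes were 376 of the 18252 cell barcodes of a droplet single-cell RNA-seq experiment on leukocytes from B16F10 mouse melanomas. A barcode was taken as NK when it held at least 500 unique molecular identifiers (UMIs, each standing for 1 captured RNA molecule), at most 10% mitochondrial UMIs, less than 0.4% of UMIs from the melanocyte genes Pmel, Mlana, Dct and Tyrp1, at most 1 UMI of C1qa, C1qb and C1qc together, and none of Cd3d, Cd3e, Cd3g, Cd79a, Cd79b or Siglech. It also had to hold at least 2 UMIs over Ncr1, Klrb1c, Klre1 and Gzma. B16F10 is a transplantable melanoma line of C57BL/6 origin.

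Viable CD45+ cells were sorted from digested tumours 2 weeks after injection of the melanoma cells, with 5 tumours pooled for each genotype and 1 library per genotype. The wild-type mice were LysM-cre x Rel+/+, and the mice with the myeloid-specific knockout of c-Rel were LysM-cre x RelloxP/loxP, so both groups carried the Cre transgene. The LysM promoter drives Cre in myeloid cells, and NK cells are therefore not the cells in which the design removes Rel, the gene of the NF-kB subunit c-Rel. The matrix marks each barcode with a library number and not with a genotype, so the libraries are called 1 and 2, values are given side by side, and no genotype comparison was made.

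NK cells are innate lymphocytes that kill transformed or infected cells with perforin and granzymes, without a rearranged antigen receptor. They weigh activating signals, many of them passed through the adaptors DAP12 and Fc receptor gamma chain, against inhibitory receptors for MHC class I, which in mice are mainly the Ly49 (Klra) receptors and CD94-NKG2A. In tumours they are known as early producers of chemokines and as killers of cells that have lost MHC class I. CD8 T cells share the killing machinery but are directed by a T cell receptor, and so are the natural comparison.

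The 4 genes that chose the barcodes and a pair of activating Ly49 genes are shown by the 250 bases before their transcription start, because they carry the identity of these cells (RefSeq, mouse build GRCm38.p6, each read 5′ to 3′ on the gene's own strand). Capitals mark the letters TGTGGT (a core of Runx sites), TCACAC (a core of T-box sites) and GGAAGT (a core of Ets sites), searched on both strands, so that the first also appears as ACCACA and the second as GTGTGA. Ncr1 lies on the + strand of chr7:4337465-4337714, Klrb1c on the - strand of chr6:128788642-128788891, Klre1 on the + strand of chr6:129577963-129578212 and Gzma on the - strand of chr13:113100982-113101231. Klra4 lies on the - strand of chr6:130067272-130067521 and Klra8 on the - strand of chr6:130129899-130130148.
Ncr1: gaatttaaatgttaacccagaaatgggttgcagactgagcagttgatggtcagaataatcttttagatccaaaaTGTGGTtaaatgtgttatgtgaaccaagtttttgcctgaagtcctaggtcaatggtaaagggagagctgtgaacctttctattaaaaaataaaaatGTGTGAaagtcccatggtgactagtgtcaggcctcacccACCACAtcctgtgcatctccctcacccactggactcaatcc
Klrb1c: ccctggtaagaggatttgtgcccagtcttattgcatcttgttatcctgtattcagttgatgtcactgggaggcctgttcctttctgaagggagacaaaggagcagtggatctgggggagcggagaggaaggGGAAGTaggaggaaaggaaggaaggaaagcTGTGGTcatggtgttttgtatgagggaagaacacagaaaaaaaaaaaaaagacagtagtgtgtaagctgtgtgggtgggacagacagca
Klre1: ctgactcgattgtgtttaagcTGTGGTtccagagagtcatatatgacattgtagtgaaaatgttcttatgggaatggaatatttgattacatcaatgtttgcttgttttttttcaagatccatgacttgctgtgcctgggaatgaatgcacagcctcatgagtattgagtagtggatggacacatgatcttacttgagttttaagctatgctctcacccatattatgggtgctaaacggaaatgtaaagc
Gzma: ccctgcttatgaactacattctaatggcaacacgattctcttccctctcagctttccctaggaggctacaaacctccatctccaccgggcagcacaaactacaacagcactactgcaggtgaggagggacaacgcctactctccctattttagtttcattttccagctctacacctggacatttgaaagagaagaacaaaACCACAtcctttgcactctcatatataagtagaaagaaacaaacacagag
Klra4: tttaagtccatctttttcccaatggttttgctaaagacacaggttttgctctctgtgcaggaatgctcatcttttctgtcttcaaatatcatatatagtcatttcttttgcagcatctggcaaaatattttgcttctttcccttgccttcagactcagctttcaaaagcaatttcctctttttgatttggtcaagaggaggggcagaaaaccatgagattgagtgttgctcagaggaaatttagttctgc
Klra8: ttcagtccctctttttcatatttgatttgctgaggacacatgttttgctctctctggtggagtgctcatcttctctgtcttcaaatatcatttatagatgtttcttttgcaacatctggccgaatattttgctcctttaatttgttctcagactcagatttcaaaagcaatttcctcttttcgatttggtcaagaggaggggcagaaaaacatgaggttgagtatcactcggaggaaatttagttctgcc
The Runx letters were found before all 4 genes of the rule and are in 14.0% of the 32851 mouse promoters of the same length in the same table. The T-box letters were found before Ncr1 (12.3% of promoters hold them), and the Ets letters before Klrb1c (19.7%). None of the 3 was found in the windows of Klra4 and Klra8, which matched each other at 84.5% of 251 aligned positions, against 44.9% of 265 for Ncr1 and Klra4. These genes were picked for display after their levels were known, and a match of 6 letters is a description of the sequence only.

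Library 1 held 290 NK barcodes among 7688, a share of 3.77% (95% exact binomial interval 3.36 to 4.22). Library 2 held 86 among 10564, a share of 0.814% (0.652 to 1.004). Most barcodes of both libraries fell to the melanocyte filter, and of the 3270 and 2972 that passed the UMI, mitochondrial and melanocyte filters, NK barcodes were 8.87% (7.92 to 9.90) and 2.89% (2.32 to 3.56). CD8 T barcodes, chosen with the same filters but at least 1 Cd3 UMI and at least 1 UMI of Cd8a and Cd8b1, numbered 351 and 252. There were thus 82.6 NK barcodes per 100 CD8 T barcodes in library 1 (70.5 to 96.8) and 34.1 in library 2 (26.4 to 43.8). The intervals cover counting error only and not the spread between animals, which 1 library per genotype cannot give, so no test between libraries is possible and none is reported.

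NK barcodes were shallow. Their median was 816.5 UMIs in library 1 and 677.5 in library 2, against 1664 and 1516 in CD8 T barcodes and 3475 and 2528 in macrophage barcodes (those with at least 5 UMIs of the C1q genes). Together they held 293217 and 71264 UMIs, so that 3 UMIs, the floor given to a count of 0, stand for 10.2 and 42.1 CPM (counts-per-million: a gene's UMIs scaled to a common total per class). The exact Poisson interval of a 0 reaches a little higher, to 12.6 and 51.8 CPM. A further 20 barcodes of library 2 and 0 of library 1 missed the class only by the UMI minimum. The 0 was set in advance, because all 7688 library 1 barcodes of the matrix held at least 500 UMIs. In library 2, 10257 of 10564 did. Of all barcode sequences, 3609 occurred in both libraries, and 2 of the NK barcodes of library 1 and 1 of library 2 were among them.

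Gzma, which encodes the granule protease granzyme A, dominated the selection. It reached 7868 CPM in library 1 (95% Poisson interval 7550 to 8196) and 5402 CPM in library 2 (4876 to 5970), with a median of 7 and 4 UMIs per barcode and a highest barcode of 32 and 18. It was seen in 97.2% and 96.5% of the NK barcodes. In macrophage barcodes, which should lack it, 1.32% and 0.297% held a Gzma UMI despite their greater depth.

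The 3 receptor genes of the rule were far sparser. Ncr1, the gene of the activating receptor NKp46, stood at 304 and 309 CPM and was seen in 23.8% and 19.8% of NK barcodes. Klrb1c, the gene of NK1.1, stood at 484 and 267 CPM, and Klre1, a lectin-like receptor gene, at 368 and 365 CPM. All 4 markers together were seen in 11 barcodes of library 1 and 0 of library 2, and 102 and 35 barcodes entered on Gzma alone. These levels are what the rule selected on and are given as a description.

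Barcodes that entered on Gzma alone could be read against those with a receptor marker through genes the rule did not use. Klra4 stood at 455 CPM (324 to 623) in the 102 library 1 barcodes with Gzma alone and at 400 CPM in the other 188, and at 260 CPM (105 to 537) and 360 CPM in the 35 and 51 barcodes of library 2. Klrk1, the gene of the activating receptor NKG2D, stood at 514 and 554 CPM in library 1 and at 372 and 451 CPM in library 2. Tyrobp, the gene of the adaptor DAP12, stood at 2686 and 2394 CPM, and at 2158 and 2568 CPM. For each of these 3 genes the intervals of both kinds of barcode overlapped in both libraries. Other genes did not overlap in library 1. Ccl5, a chemokine gene, stood at 15273 CPM (14456 to 16123) in barcodes with Gzma alone and at 13321 CPM (12829 to 13826) in the rest, and in library 2 at 14660 and 11760 CPM, also without overlap. Trbc1, a T cell receptor constant region, stood at 841 CPM (658 to 1059) and 520 CPM (427 to 628) in library 1 and at 744 and 541 CPM, with overlapping intervals, in library 2. The myeloid genes Lyz2 and S100a8 stood at 911 and 1284 CPM in library 1 barcodes with Gzma alone against 135 and 207 CPM in the rest, and in library 2 at 0 and 781 CPM against 90.1 and 1194 CPM. These levels rest on few barcodes and do not describe either kind. All 110 S100a8 UMIs of the library 1 barcodes with Gzma alone sat in 1 barcode. In library 1, S100a8 was seen in 4 NK barcodes and Lyz2 in 8, and in library 2 in 6 and 2.

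Receptor genes that the rule did not use were present on both sides of the threshold of 2 marker UMIs. The 27 and 13 barcodes just inside it, with exactly 2 marker UMIs, held Klra4 at 489.5 and 318 CPM and Klrk1 at 694 and 318 CPM. The 31 and 24 barcodes just outside it, with 1 marker UMI, held Klra4 at 194 and 42.7 CPM and Klrk1 at 304 and 114 CPM. For both genes the intervals of the 2 sides overlapped in both libraries. The sides were not alike in other genes. In library 2, Tyrobp stood at 1802 CPM inside and 613 outside, Nkg7 at 1060 and 199, and Ccl5 at 10601 and 1995. Those intervals did not overlap, while in library 1 the intervals of these 3 genes did. In library 1, Lyz2 stood at 40.8 CPM inside and 1465 outside, and Cd74 at 81.6 and 1797, without overlap. In library 2 Klra4 had only 3 UMIs on each side, with intervals of 65.6 to 929 CPM inside and 8.81 to 125 CPM outside. The barcodes outside held 70193 UMIs there against 9433 inside, so the same count stands for a lower CPM. Why the barcodes on the 2 sides differ was not tested. In the 1339 and 1546 barcodes with no marker UMI that passed all other steps, Klra4 was at 2.18 and 1.76 CPM. The Cd3 step alone turned away 59 and 18 barcodes that met every other condition, 29 and 10 of them in the CD8 T class and 30 and 8 with no Cd8 UMI.

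The class was checked against markers the rule did not use. Of 9 such NK markers (Klrk1, Klrd1, Nkg7, Eomes, Tbx21, Prf1, Il2rb, Fcer1g and Tyrobp), all 9 were detected in both libraries. Their summed level was 11244 CPM in library 1 and 8195 CPM in library 2, against 4148 and 3007 CPM in CD8 T barcodes. Most of that excess came from Fcer1g and Tyrobp. CD8 T barcodes also held all 9 in both libraries, and macrophage barcodes held 9 and 8, so detection alone does not separate the classes. In macrophage barcodes the sum was 6848 and 5670 CPM, nearly all of it Fcer1g and Tyrobp, adaptors that myeloid cells share.

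**Figure D1:**
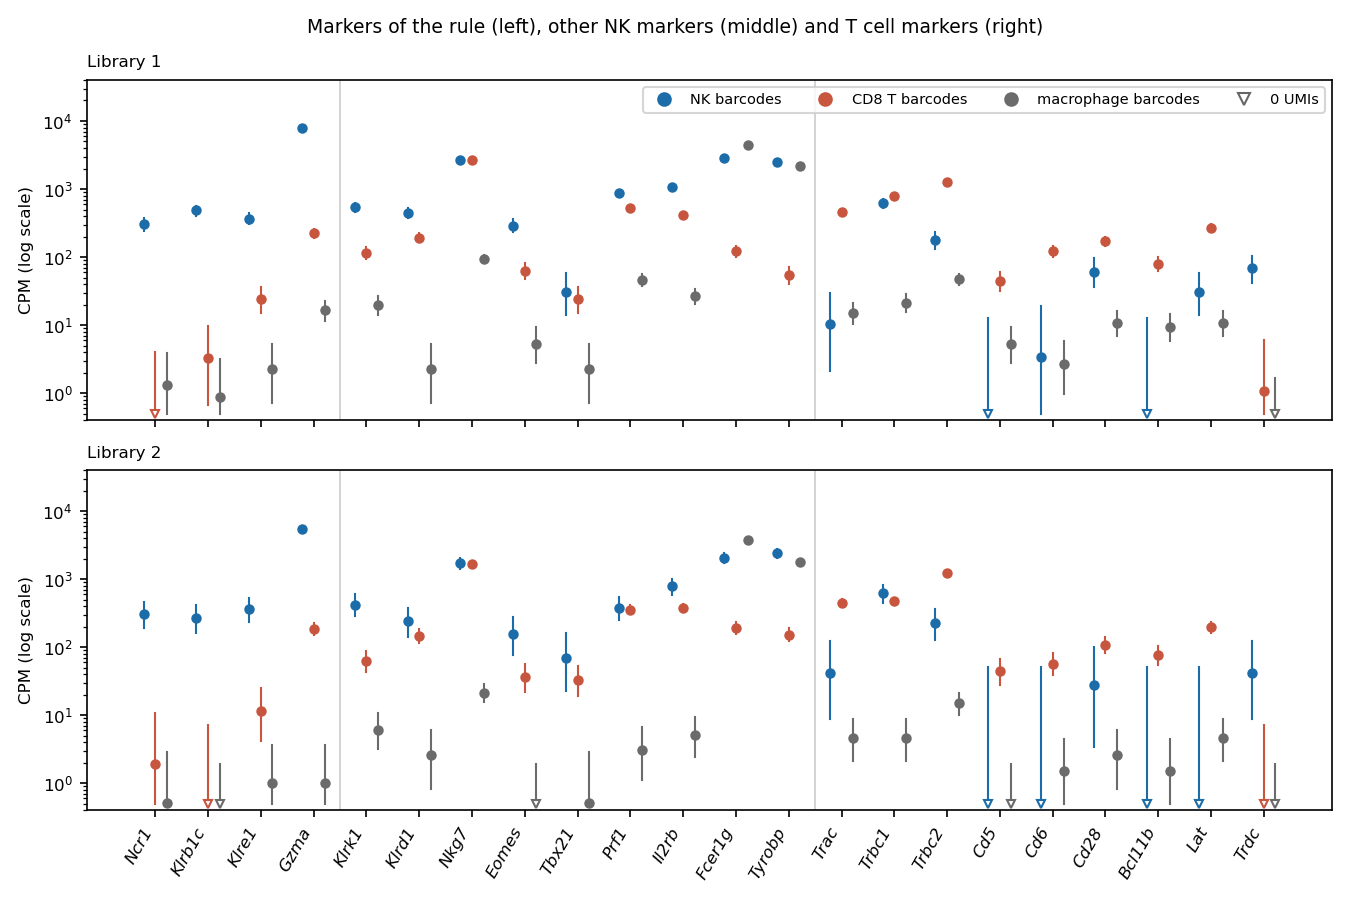
Levels of 22 marker genes in NK, CD8 T and macrophage barcodes, in CPM on a log axis, with library 1 above and library 2 below. Points are summed UMIs scaled to CPM, bars are 95% Poisson intervals cut at 0.5 CPM, and open triangles mark genes with 0 UMIs. Gzma is the highest point of the rule genes at 7868 and 5402 CPM, and Trac is low in NK barcodes while Trbc1 is near its CD8 T level.

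T cell receptor RNA did not follow a single pattern. Trac, the constant region of the alpha chain, had 3 UMIs in each library, 10.2 and 42.1 CPM, against 466 and 453 CPM in CD8 T barcodes. Trbc1, a constant region of the beta chain, had an NK level of 614 CPM (527 to 710) in library 1 and 617 CPM (449 to 829) in library 2, against 778 and 474 CPM in CD8 T barcodes, and at 21.5 and 4.62 CPM in macrophage barcodes. Trbc2, the other beta constant region, stood at 177 and 224.5 CPM against 1265 and 1228 CPM.

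Trbc1 RNA in NK barcodes was thus near its CD8 T level, somewhat below it in library 1 and with overlapping intervals in library 2, while Trac and Trbc2 were far lower. Trbc1 was seen in 43.1% and 33.7% of NK barcodes, and in 28.3% and 26.7% after every barcode was thinned to 500 UMIs. The thinned share of macrophage barcodes was 0.188% and 0.148%. Trdc, the delta constant region, had 20 and 3 UMIs in NK barcodes, whereas Tcrg-C1 and Tcrg-C2 had 0 in both.

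Other T cell genes were at or near the limit. Cd5, a surface regulator of T cell signalling, and Bcl11b, the transcription factor that fixes T cell identity, had 0 UMIs in NK barcodes of both libraries, with 41 and 23 and with 73 and 40 UMIs in CD8 T barcodes. Themis, a T cell receptor signalling gene, also had 0 in both, against 130 and 53. Lat, the adaptor that links the T cell receptor to its downstream enzymes, had 9 and 0 UMIs against 246 and 102. The NK total of library 2 was small, at 71264 UMIs against 521064 for CD8 T barcodes. A 0 in those NK barcodes allows up to 51.8 CPM, which is above the CD8 T level of Cd5. The library 2 count of Cd5 therefore does not separate the classes.

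Markers of other lineages varied. All 6 markers of group 2 and group 3 innate lymphoid cells and all 5 of mast cells and basophils had 0 UMIs in NK barcodes of both libraries. The B cell list was seen in 27 (9.31%) and 9 (10.5%) NK barcodes and summed to 98.9 and 126 CPM, against 89.8 and 78.7 CPM in CD8 T barcodes. Markers of group 1 innate lymphoid cells, close relatives of NK cells, summed to 198 and 126 CPM, against 378 and 390 CPM in CD8 T barcodes, with Cxcr6 at 1 and 0 UMIs and Itga1 at 7 and 0.

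Myeloid RNA was unevenly spread. Of 6 neutrophil markers, 5 and 3 were seen, summing to 1088 and 2021 CPM, but in 10 and 7 barcodes, and 221 of 319 and 108 of 144 UMIs sat in 1 barcode of each library. Monocyte and macrophage markers were seen in 32 (11.03%) and 15 (17.4%) NK barcodes and summed to 645 and 379 CPM, with Csf1r at 0 in both libraries. Dendritic markers were seen in 13 and 8 barcodes and summed to 98.9 and 1698 CPM. The 4 melanocyte genes that the rule limits still summed to 477 and 842 CPM, against 269 and 766 CPM in CD8 T barcodes. Their part in the results was not tested except where values without these barcodes are given.

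Against CD8 T barcodes, NK barcodes held more RNA of the receptor genes Klra4, Klrk1 and Klrc2 and of the adaptor genes Tyrobp and Fcer1g, and less of most measured checkpoint and cell cycle genes. To be called, a gene needed 20 or more UMIs in NK and CD8 T barcodes together, in library 1 and again in library 2, and a ratio of CPM of at least 2 in the same direction in both libraries. By that rule, 140 of 3647 measured genes (3.84%) were higher in NK and 247 (6.77%) were higher in CD8 T barcodes. Of 249 genes in 19 functional lists, 163 were measured, of which 25 (15.3%) were higher in NK and 34 (20.9%) in CD8 T barcodes. Of the lists with at least 5 measured genes, genes of immature NK cells had the largest share higher in NK (3 of 7), and proliferation (11 of 16), checkpoint (5 of 8) and cytokine and chemokine genes (3 of 7) the largest shares higher in CD8 T barcodes. The lists were drawn up for NK and T cell biology, and the genes that also define the classes were left out.

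**Figure D2:**
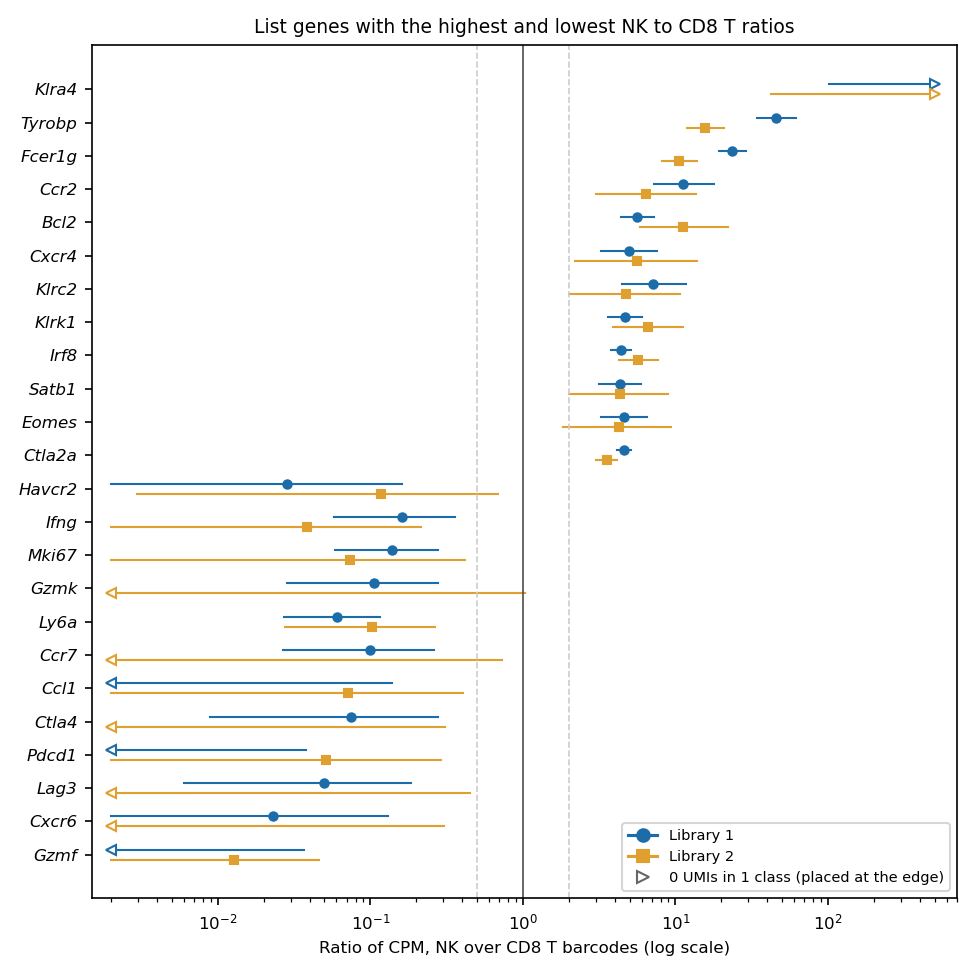
Ratio of CPM in NK over CD8 T barcodes for the 12 list genes with the highest and the 12 with the lowest ratios, on a log axis, with library 1 and library 2 as separate symbols. Bars are 95% conditional binomial intervals for counting error, arrowheads at an edge mark 0 UMIs in 1 class, and dashed lines mark ratios of 0.5 and 2. Klra4 and Tyrobp lie highest and Gzmf lowest.

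Klra4, of the Ly49 family, had the highest NK to CD8 T ratio of the measured genes. Of 17 genes in the list of inhibitory receptors and Ly49, only 3 were measured, and 1 was higher in NK. Klra4 encodes Ly49D, an activating receptor that signals through DAP12. It had 122 and 23 UMIs in NK barcodes, 416 and 323 CPM, and 0 and 0 in CD8 T barcodes, at least 127-fold and at least 56.1-fold higher when the empty class is given 3 counts. It was seen in 24.5% and 22.1% of NK barcodes. Of the barcodes of the rest of the T cells, with Cd3 but no Cd8 UMI and medians of 923 and 788 UMIs, 0 of 383 and 0 of 197 held it. That allows up to 0.958% and 1.86% of such barcodes with a UMI (upper end of the exact binomial interval) and sets no limit on the share of T cells that express it.

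Klra8 encodes Ly49H, the activating receptor for a cytomegalovirus protein. It stood at 259 and 267 CPM, with 76 and 19 UMIs against 3 and 0 in CD8 T barcodes, 78.9-fold (26.0 to 391) higher in library 1 and at least 46.3-fold higher in library 2. The inhibitory members Klra7, Klra9, Klra3 and Klra1, which bind MHC class I, stood at 232, 181, 119 and 113 CPM in library 1 and at 182, 98.2, 84.2 and 98.2 CPM in library 2. Klra5 and Klra6 had 0 UMIs in both libraries. Ly49 genes are known as close relatives, so reads may have been split between members or lost.

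Most NK barcodes showed a Ly49 gene, and a minority showed more than 1. At least 1 of the 9 Klra genes was seen in 168 of 290 NK barcodes (57.9%, 52.0 to 63.7) and in 51 of 86 (59.3%, 48.2 to 69.8). The share was 3.70% and 0.397% of CD8 T barcodes and 5.26% and 3.41% of macrophage barcodes, at their higher median depths. At 500 UMIs per barcode the shares were 42.1% and 48.8% in NK, 1.99% and 0% (0 to 1.45) in CD8 T, and 0.940% and 0.593% in macrophage barcodes.

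Klra4 and Klra8 were seen together in 17 barcodes of library 1, out of 71 with Klra4 and 47 with Klra8. In library 2 they shared 2, out of 19 and 14. At least 2 Klra genes were seen in 72 and 12 barcodes, with a maximum of 4 and 2 in 1 barcode. A receptor that was not seen may have been missed at these depths.

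**Figure D3:**
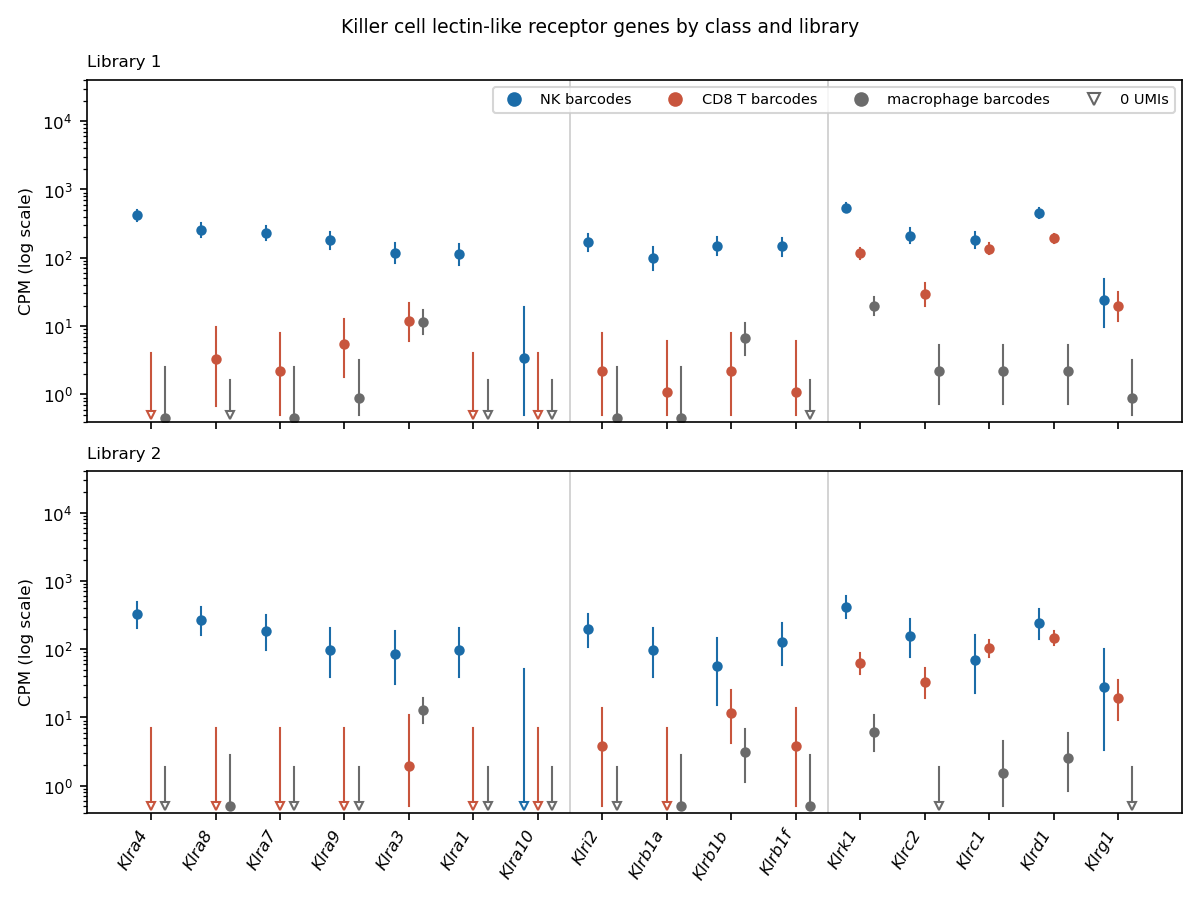
Levels of 16 killer cell lectin-like receptor genes in CPM on a log axis, by class, with library 1 above and library 2 below and 95% Poisson intervals cut at 0.5 CPM. Open triangles mark 0 UMIs. Vertical lines separate the Klra genes, the Klri and Klrb1 genes, and the receptors that CD8 T cells share. Klra4 leads the Klra genes in NK barcodes at 416 and 323 CPM, and CD8 T points of that group lie at or below 12.04 CPM.

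Other lectin-like receptors set NK barcodes apart by degree. Klri2, a receptor gene related to Klre1, had 50 and 14 UMIs against 2 and 2 in CD8 T barcodes. Klrb1a, Klrb1b and Klrb1f, relatives of the NK1.1 gene, stood at 98.9, 150 and 147 CPM in library 1 and at 98.2, 56.1 and 126 CPM in library 2. In CD8 T barcodes none of the 3 was above 11.5 CPM in either library.

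Receptors that activated CD8 T cells also use differed less. Klrk1 stood at 542 and 421 CPM against 116 and 63.3 CPM, ratios of 4.67 (3.63 to 6.03) and 6.65 (3.92 to 11.2). Klrc2, the gene of NKG2C, stood at 211 and 154 CPM, ratios of 7.15 (4.48 to 11.7) and 4.73 (2.00 to 10.7). Klrc1 and Klrd1, whose products form the inhibitory CD94-NKG2A receptor, had ratios of 1.36 and 0.677 and of 2.35 and 1.64, and neither met the rule in both libraries. Cd226, the gene of the activating receptor DNAM-1, was lower in NK barcodes, with 3 and 0 UMIs against 28 and 26 in CD8 T barcodes. Its CD8 T level in library 2 was still below the 51.8 CPM that a 0 allows in NK barcodes.

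Of 9 measured signalling genes 2, the adaptor genes Tyrobp and Fcer1g, were higher in NK and 2, Zap70 and Lcp2, in CD8 T barcodes. Tyrobp stood at 2479 and 2414 CPM in NK barcodes against 54.7 and 154 CPM, ratios of 45.3 (34.0 to 61.6) and 15.7 (11.99 to 20.8). Fcer1g, the Fc receptor gamma chain, stood at 2872 and 2035 CPM against 122 and 192 CPM, ratios of 23.6 (19.4 to 29.1) and 10.6 (8.16 to 13.8). Macrophage barcodes held Tyrobp at 2212 and 1811 CPM and Fcer1g at 4438 and 3820 CPM, so neither gene is special to NK cells.

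Hcst, the gene of DAP10, the adaptor of NKG2D, stood at 535 and 603 CPM with ratios of 1.41 and 1.28. Kinases divided between the classes. Zap70, the kinase of the T cell receptor that NK cells also use, had ratios of 0.445 and 0.257, while Syk, the related kinase downstream of DAP12, had 11 and 4 UMIs in NK and 1 and 5 in CD8 T barcodes. Txk, a Tec family kinase, had ratios of 6.41 (5.04 to 8.21) and 10.4 (6.74 to 16.2), and the Src family kinase gene Lyn of 9.34 and 7.31.

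Most measured cytotoxic granule genes were called for neither class, as were 3260 of all 3647 measured genes. Of 16 measured, 2 (12.5%) were higher in NK, 3 (18.75%) in CD8 T barcodes and 11 in neither. Over all measured genes the shares were lower, at 3.84% and 6.77%. The count for CD8 T barcodes depended on a few NK barcodes. Without the 2 of each library richest in Gzmc, described below, it was 5 of 16, and without the deepest barcodes 5 of 15. At 500 UMIs per barcode it was 1 of 9. Nkg7, a granule membrane protein gene, stood at 2650 and 1698 CPM with ratios of 1.01 (0.928 to 1.09) and 1.03 (0.843 to 1.25). Prf1, the gene of perforin, stood at 863 and 379 CPM with ratios of 1.61 (1.38 to 1.88) and 1.07 (0.685 to 1.60). Gzmb, granzyme B, stood at 297 and 323 CPM with ratios of 0.869 (0.677 to 1.10) and 0.570 (0.356 to 0.872).

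The granule genes higher in NK barcodes were Serpinb9, whose product protects the killer cell from its own granzyme B, with ratios of 2.83 and 2.24, and Fasl, the ligand of the death receptor Fas, with ratios of 2.42 and 4.06. Gzmk, Gzmd and Gzmf were higher in CD8 T barcodes. Gzmf had 0 and 2 UMIs in NK against 314 and 1147 in CD8 T barcodes, and Gzmk had 4 and 0 against 118 and 28. The granzyme genes Gzmb to Gzmg are close relatives, so their counts may share reads.

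Gzmc, a granzyme of strongly stimulated killer cells, came almost wholly from a few NK barcodes. It totalled 310 and 105 UMIs, 1057 and 1473 CPM. In library 1, 239 UMIs sat in 1 barcode and 60 in another, and in library 2, 74 and 29. Those pairs held 96.5% and 98.1% of the class's Gzmc, and without them the level was 39.1 and 30.8 CPM. All 17 Gzmd and all 23 Gzme UMIs of library 2 sat in 1 barcode, the deepest of its pair.

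The 4 Gzmc barcodes were deeper than most, at 7966 and 3666 UMIs in library 1 and 3821 and 2437 in library 2. They carried NK genes too. Tyrobp was at 13, 8, 10 and 6 UMIs in them, Prf1 at 7, 11, 3 and 1, and Eomes at 4, 2, 1 and 0, whereas Trac was at 0, 0, 0 and 1. The deepest also held 73 UMIs of the proliferation list, against 3 to 5 in the others, and was among the barcodes with 3 or more myeloid or dendritic marker UMIs. These barcodes were singled out after their values were seen.

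**Figure D4:**
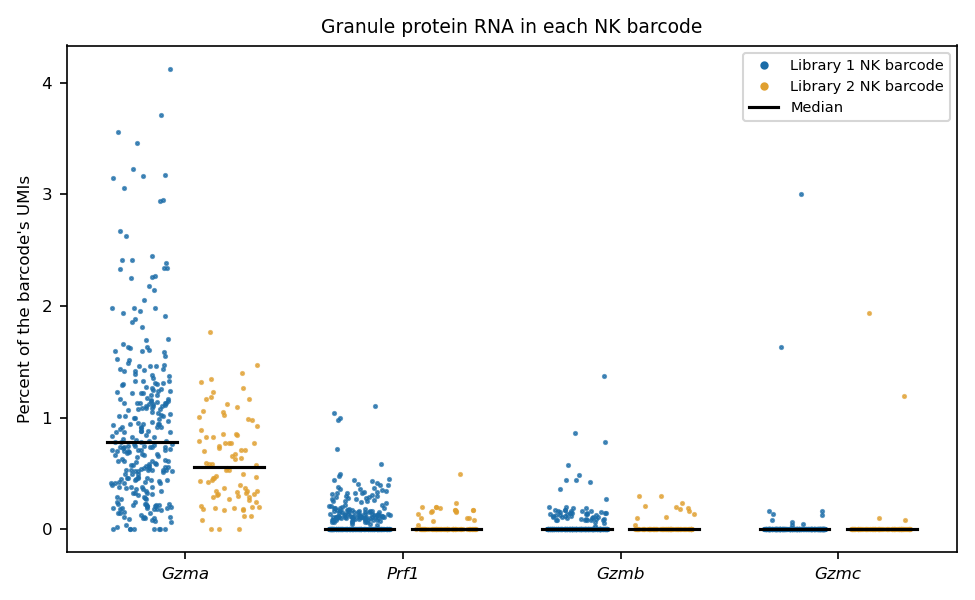
Share of each NK barcode's UMIs that came from Gzma, Prf1, Gzmb and Gzmc, in percent, with 1 point per barcode, the libraries in separate colours and the median as a black line. Gzma is spread over the whole class with medians of 0.783% and 0.561%, whereas Gzmc sits in 2 barcodes of each library at 1.19% to 3.0% of their UMIs.

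Of 10 measured survival genes, 3 (30%) were higher in NK (Bcl2, Bcl2l11 and Txnip), 1 (10%) in CD8 T and 6 in neither class. Over all measured genes the shares higher in NK and in CD8 T barcodes were 3.84% and 6.77%. Bcl2, which blocks mitochondrial cell death, stood at 638 and 365 CPM against 114 and 32.6 CPM, ratios of 5.60 (4.38 to 7.19) and 11.2 (5.84 to 22.0). Bcl2l11, whose product BIM promotes death and is held by BCL2, was also higher, with ratios of 4.52 and 3.23. Txnip, the gene of a thioredoxin-binding protein, had ratios of 3.29 and 2.06, and 1.71 in library 2 without its highest barcode. Bcl2a1b, a relative of Bcl2, went the other way, at 54.6 and 56.1 CPM against 288 and 267 CPM.

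Among 11 cytokine receptor genes measured, Il2rb, Il18rap and Ifngr1 were higher in NK barcodes, 1 was higher in CD8 T and 7 in neither. With at least 1000 UMIs per barcode, a marker sum of at least 1 or a melanocyte limit of 2%, 0 were higher in NK. Il2rb, the receptor chain shared by interleukins 2 and 15 and needed for NK survival, stood at 1067 and 786 CPM, ratios of 2.60 (2.23 to 3.03) and 2.08 (1.52 to 2.81). Without the NK barcode that held most of each gene, the library 2 ratio of Il2rb was 1.996 and the library 1 ratio of Il18rap fell from 2.01 to 1.89, both short of the call. Ifngr1, a chain of the interferon gamma receptor, stood at 1637 and 1109 CPM, ratios of 3.59 and 3.19. Il21r, the interleukin 21 receptor, was higher in CD8 T barcodes.

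Transcription factor genes split between the classes. Eomes, needed for NK maturation, stood at 290 and 154 CPM, ratios of 4.56 (3.23 to 6.49) and 4.23 (1.82 to 9.36). Irf8 stood at 1463 and 1193 CPM, ratios of 4.41 (3.80 to 5.13) and 5.70 (4.24 to 7.64). Tbx21, the gene of T-bet, had 9 and 5 UMIs with ratios of 1.27 and 2.15, and Id2, which both lineages need, had ratios of 1.02 and 0.911. Tox and Ikzf2 were higher in CD8 T barcodes, with Tox at 7 and 2 UMIs in NK barcodes.

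Maturation genes were covered unevenly. Of 7 measured genes of immature NK cells, 3 were higher in NK than in CD8 T barcodes (Cd7, Ctla2a and Emb), and of 2 measured genes of mature NK cells, 0 were. Ctla2a, a protease inhibitor gene, stood at 3059 and 3241 CPM, ratios of 4.60 (4.14 to 5.10) and 3.54 (3.01 to 4.15). Its library 2 log2 ratio of 1.83 was 0.37 among barcodes with at least 1000 UMIs, 0.81 when the melanocyte limit was 2% and 0.99 when Gzma was left out of the rule, all below the call. In those 3 settings 1, 1 and 0 of the immature genes were higher in NK.

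Cd27, which marks less mature NK cells, was seen in 26 and 10 barcodes, Itgam (CD11b), which marks mature ones, in 7 and 2, and both in 0 and 1. Klrg1, Cx3cr1 and S1pr5, genes of the most mature NK cells, had 7, 1 and 1 UMIs in library 1 and 2, 0 and 0 in library 2. Cma1, a mast cell protease gene also known from mature NK cells, had 22 and 1 UMIs against 0 and 0 in CD8 T barcodes. These counts are too low to sort single barcodes by stage.

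Homing genes differed in both directions. Ccr2, the receptor for monocyte-attracting chemokines, stood at 331 and 210 CPM, ratios of 11.2 (7.24 to 17.8) and 6.45 (3.0 to 13.7). Cxcr4 had ratios of 4.95 and 5.62, and Itgb1, an integrin chain gene, of 2.55 and 2.07, the latter 1.97 without its highest barcode. Cxcr6, a receptor of tissue-resident lymphocytes, had 1 and 0 UMIs against 136 and 90 in CD8 T barcodes, and Ccr7, the receptor for lymph node homing, had 4 and 0 against 125 and 39.

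Among chemokine and cytokine genes, Ccl5 prevailed. It was the most abundant list gene, at 13891 and 12854 CPM, with ratios of 2.40 (2.30 to 2.50) and 3.08 (2.84 to 3.32). Of 7 measured genes in its list, 1 was higher in NK. That number was 0 with at least 1000 UMIs, a marker sum of at least 1 or a melanocyte limit of 2%. It was also 0 without Gzma in the rule, with CPM averaged over barcodes, and at 500 UMIs per barcode. In the 8 and 3 NK barcodes without Gzma, Ccl5 stood at 3826 and 245 CPM. Xcl1, which attracts cross-presenting dendritic cells, stood at 119 and 210 CPM and was on different sides of 1, at 0.681 and 1.64. Of its 15 UMIs in library 2, 8 sat in 1 barcode, among those rich in Gzmc. Without its highest NK barcode of each library Xcl1 was at 106 and 102 CPM with ratios of 0.605 and 0.791, so that the library 2 direction rests on that barcode. Ifng had 6 and 1 UMIs, 20.5 and 14.0 CPM, against 127 and 367 CPM in CD8 T barcodes. Csf2, Il2, Il10, Lta and Areg had 0 UMIs in NK barcodes of both libraries.

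Inhibitory checkpoint genes were scarce in NK barcodes. Of 8 measured, 5 were higher in CD8 T barcodes and 0 in NK. Pdcd1, the gene of PD-1, had 0 and 1 UMIs in NK against 307 and 142 in CD8 T barcodes. Lag3 had 2 and 0 against 125 and 62, and Havcr2, the gene of TIM-3, 1 and 1 against 110 and 62. Tigit was low in both classes, with 1 UMI in NK barcodes of each library and 7 and 2 in CD8 T barcodes.

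NK barcodes also held less cell cycle RNA. Of 16 measured proliferation genes, 11 were higher in CD8 T barcodes and 0 in NK. Mki67 had 8 and 1 UMIs, 27.3 and 14.0 CPM, against 197 and 192 CPM. With a melanocyte limit of 2% in place of 0.4%, its log2 ratios moved from -2.77 and -3.20 to -0.90 and -0.92, and 0 of 17 measured proliferation genes met the call, so the count rests on that limit. The list summed to 1374 and 1165 CPM in NK barcodes against 4252 and 4293 CPM in CD8 T barcodes.

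At 500 UMIs per barcode, 39.7% and 37.2% of NK barcodes held any UMI of the list, against 57.8% and 64.3% of CD8 T barcodes and 56.0% and 57.4% of macrophage barcodes. Without thinning, at least 3 such UMIs were seen in 20 (6.90%) and 9 (10.5%) NK barcodes and in 44.2% and 50.4% of CD8 T barcodes. A small number of NK barcodes thus carried several cell cycle molecules.

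Most genes of the NF-kB family, the subject of the mouse model, were called for neither class, as were most measured genes of any kind. Being called for neither does not make them even. Nfkbiz (ratios of 2.96 and 0.357) and Nfkbie (2.14 and 0.318) went in opposite directions in the libraries. Of 12 measured, 0 were higher in NK and 1 (8.33%), Rel, in CD8 T barcodes. The shares of all measured genes were 3.84% and 6.77%, so the family was not set apart by these counts. Rel had 21 and 3 UMIs in NK barcodes, 71.6 CPM (44.3 to 109) and 42.1 CPM (8.68 to 123), with ratios of 0.467 (0.280 to 0.742) and 0.252 (0.0510 to 0.762). Without the CD8 T barcode that held most Rel, the library 1 ratio was 0.506, just short of the call. Nfkbia, the gene of the feedback inhibitor IkB alpha, stood at 460 and 323 CPM with ratios of 1.29 and 0.734.

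The stress, interferon and metabolic lists had 1 or 2 called genes each. Of the stress genes, 13.3% were higher in NK, against 3.84% of all measured genes. Of the interferon and metabolic genes, 20% and 8.33% were higher in CD8 T barcodes, against 6.77%. Of 15 measured immediate early and heat shock genes, Dusp2 (ratios of 3.44 and 2.60) and Nr4a3 (2.08 and 2.92) were higher in NK barcodes and 0 in CD8 T. Without its highest NK barcode Nr4a3 had a library 1 ratio of 1.85, short of the call. Of 12 measured hypoxia and glycolysis genes 1, Hk2, was higher in CD8 T barcodes, and Gapdh had ratios of 0.641 and 0.414. A single library 1 barcode, the deepest NK barcode, held 246 of the 665 Gapdh UMIs, and without it the Gapdh level fell from 2268 to 1518 CPM and the ratio to 0.429, so that Gapdh met the call for CD8 T barcodes. Ldha, a lactate dehydrogenase gene, fell from 761 to 489 CPM and its ratio from 0.644 to 0.414. Of 5 measured interferon response genes 1, Ly6a, was higher in CD8 T barcodes, at 510 and 547 CPM against 30.7 and 56.1 CPM in NK.

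Over all genes rather than the lists, Irs2, an insulin receptor substrate gene, came next after Klra4 and Tyrobp. It had 29 and 13 UMIs in NK against 3 and 7 in CD8 T barcodes, ratios of 30.1 (9.33 to 154) and 13.6 (5.04 to 40.2). Sult2b1, a sulfotransferase gene, had ratios of 8.31 and 5.62, and its library 2 log2 ratio dropped from 2.51 to 0.52 when Gzma was left out of the rule, short of the call. The ratios of Mir142hg, a microRNA host gene, were 5.61 and 7.31. At the other end stood Tnfrsf4, the gene of the costimulatory receptor OX40, with 1 and 0 UMIs in NK against 397 and 185 in CD8 T barcodes. Gm8369, Tff1 and Gstp3 completed the lowest 10 with Gzmf, Cxcr6, Lag3, Themis, Pdcd1 and Bcl11b, and NK barcodes held at most 2 UMIs of any of these genes in a library.

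The NK barcodes of the libraries were then set side by side. With a ratio of at least 2 and at least 20 UMIs over both, 370 of 2580 measured genes (14.3%) were higher in library 1 and 101 (3.91%) in library 2, and of 129 list genes measured 15 (11.6%) and 3 (2.33%). Library 2 held 71264 NK UMIs against 293217, so that many of these ratios rest on a handful of molecules there. The list shares were below the shares of all genes in both directions.

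**Figure D5:**
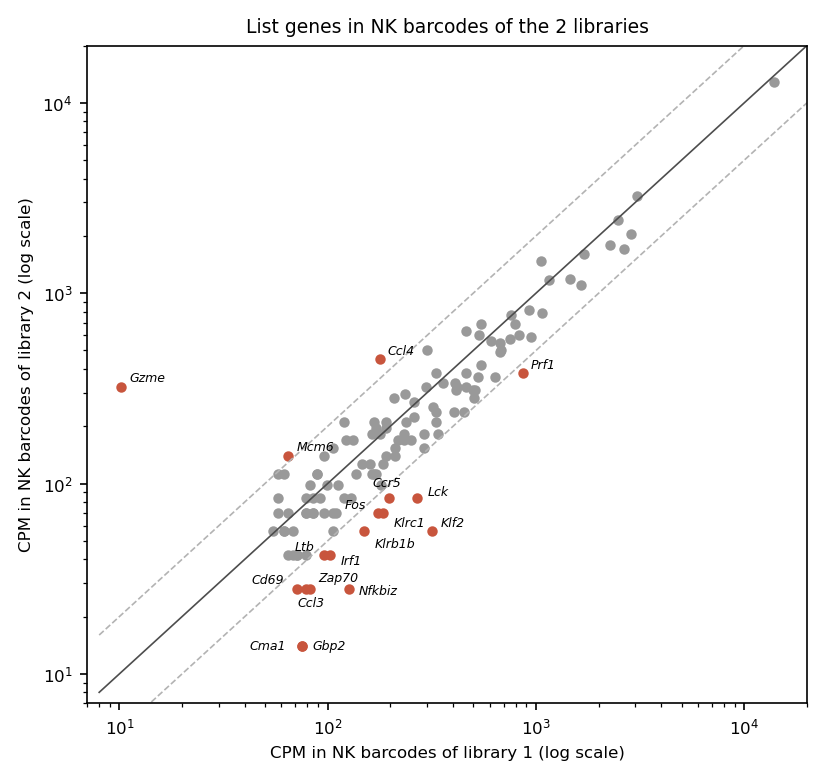
CPM of the 129 measured list genes in NK barcodes of library 1 (horizontal) and library 2 (vertical), both on log axes, with 1 point per gene. The solid line marks equal levels, dashed lines a ratio of 2 either way, and coloured, named points lie beyond them. Most genes lie between the dashed lines, with Gzme and Ccl4 above them and Prf1 and Klf2 below.

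Klf2, a transcription factor of lymphocyte trafficking, stood at 317 CPM in library 1 and 56.1 CPM in library 2, a ratio of 5.65 (2.13 to 21.2). Prf1 was 2.28-fold (1.53 to 3.52) higher in library 1, from 253 and 27 UMIs. Its share of NK barcodes with a UMI was 46.9% and 24.4%, and 34.1% and 17.4% at 500 UMIs per barcode. Lck, a T and NK cell kinase gene, was 3.20-fold (1.41 to 8.98) higher in library 1, and Klrc1 2.62-fold (1.06 to 8.41).

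On the library 2 side stood Gzme, Ccl4 and Mcm6. The 23 Gzme UMIs came from 1 barcode, as above. Ccl4, a chemokine gene, stood at 177 and 449 CPM, but 30 of its 32 UMIs in library 2 were in 1 barcode. Without the 11 and 8 barcodes that held at least 3 UMIs of myeloid or dendritic markers, Ccl4 was at 149 and 33.0 CPM, so that its direction turned. Mcm6, a replication gene, had 19 and 10 UMIs and a ratio of 2.17 (0.899 to 4.90).

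Those 11 and 8 barcodes were picked by myeloid and dendritic markers, so a fall of such genes without them is largely set by the choice. S100a8 went from 153 and 74 UMIs to 2 and 2, Cd74 from 15 and 42 to 5 and 1, and Cst3 from 66 and 62 to 37 and 6. Prf1 remained higher in library 1, at 944 and 445 CPM. The deepest NK barcode of library 1, with 17113 UMIs or 5.84% of the class, held 246 Gapdh UMIs and 0 of the leukocyte gene Ptprc.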

How the data were processed

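Sorted CD45+ cells of 5 pooled tumours per genotype were made into droplet 3′ libraries (10x Genomics), aiming at 10000 reads for each cell, as the labels' protocols say. Cell Ranger and the build mm10 are named in the submitters' processing notes. Version 3.0.2 wrote the matrix, per the file headers. Its deposited values are raw UMI counts for 31053 genes in 18252 barcodes. Alignment settings and filters are not given in the sources used here. Nothing ties a barcode ending to a genotype.

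Classes were gated as the report describes, UMIs summed per class and library, and 35 symbols given to more than 1 gene left out. Levels have exact Poisson, shares exact Clopper-Pearson and ratios exact conditional binomial intervals at 95%, for counting error only. UMIs are not replicates of an animal, and no p-value was computed. Thinning drew 500 UMIs per barcode. No doublet caller was run, and barcodes above the 95th percentile of depth were left out as an alternative. Code was tested on simulated counts for NK against CD8 T over 3421 measured genes, where 96.0% of 50 genes changed 4-fold upward and 20.8% of 48 changed 2-fold upward were called, against 91.1% of 45 and 54.5% of 44 changed as much downward, so a 2-fold change was called more often in the CD8 T direction. Python 3.11.15, numpy 2.4.6, scipy 1.17.1, pandas 2.3.3, matplotlib 3.10.9 and, for promoter alignment, Biopython 1.88 were used. Of 254 list and rule genes, 202 had a promoter entry.

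The members and lists were chosen with earlier results of these data known. Named genes are those of the rule, the 12 highest and 12 lowest list ratios and the 10 highest and 10 lowest ratios of any gene, where both libraries lay on 1 side of 1 (0.5 added to each count for ranking), the 8 highest and 8 lowest list ratios between libraries with at least 100 CPM in 1 library, up to 4 list members with the highest NK level, and Rel. Other genes and the contrasts within the class (Gzma alone, Gzmc barcodes, macrophage and other T barcodes, promoter motifs) were chosen after values were seen. A list symbol, Cd244, was corrected to the annotation's after the files were read, and 249 of 250 list genes were found under 1 gene.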

Additional observations from a re-analysis of the deposited data

Results flagged for a closer look

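A pair of NF-kB feedback genes lay on opposite sides of 1 in the libraries when NK barcodes were set against CD8 T barcodes. The ratio of Nfkbiz, the gene of IkB zeta, was 2.96 in library 1 and 0.357 in library 2, from 37 and 2 UMIs in NK barcodes. The ratio of Nfkbie, the gene of IkB epsilon, was 2.14 in library 1 and 0.318 in library 2, from 11 and 1 UMIs. The difference between the libraries was not tested, since each genotype has 1 library. Without the barcodes that held 3 or more myeloid or dendritic marker UMIs, Nfkbiz had 24 and 2 UMIs in NK barcodes.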

How the results depend on the processing

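The counts as reported are 290 and 86 NK barcodes, 25 list and 140 overall genes higher in NK, 34 and 247 higher in CD8 T barcodes, and 15 and 3 list genes higher in library 1 and library 2. With at least 1000 UMIs there were 75 and 14 NK barcodes, with 11 list and 70 overall genes higher in NK and 7 list genes higher in library 2. With a marker sum of at least 3, 5 list genes were higher in library 2, and with at least 1 there were 110 library 2 barcodes, with 52 and 13 list genes higher in library 1 and 2. Without Gzma in the sum there were 95 and 9 NK barcodes, 11 list and 75 overall genes higher in NK, and 37 and 6 between libraries. A melanocyte limit of 2% gave 14 list and 82 overall genes higher in NK, 125 overall in CD8 T, and 54 higher in library 1. Without barcodes holding a T cell receptor constant UMI, 136 and 50 NK barcodes were left. Without the deepest barcodes, 1 list gene was higher in library 2. A minimum of 10 UMIs per gene gave 252 and 415 overall genes by class, and 27 and 7 list genes between libraries, and a minimum of 50 gave 15 list and 45 overall genes higher in NK, 100 overall in CD8 T, and 6 and 1 between libraries. At 500 UMIs per barcode 13 list and 32 overall genes were higher in NK, and 18 and 53 in CD8 T barcodes. Leaving out each gene's highest NK barcode, which lowers NK levels by construction, gave 20 list and 92 overall genes higher in NK, 47 and 434 in CD8 T, and 23 and 0 between libraries. The higher gene minimum and thinning leave fewer genes measured, and the cause of the other shifts was not tested.

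Across 15 planned settings and 5 added after the data were seen, 35 named genes gave 1400 ratios in the separate libraries, of which 1338 stayed inside the counting interval, 62 moved outside it and 0 changed direction. The minimums of 10 and 50 UMIs per gene leave these ratios unchanged by construction, so their 70 values each add nothing. The 35 genes were also taken for extreme ratios in these data, which makes a change of direction unlikely. These counts therefore do not measure how stable the ratios are. Among those that moved, the library 2 log2 ratios of Klrc2, Cxcr4 and Sult2b1 were 0.14, 0.52 and 0.52 when Gzma was left out of the rule. No paired analysis was possible because each genotype has 1 library. Depth is a limit: 3 UMIs stand for 42.1 CPM in library 2.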
